A study of Mus musculus with 4 samples.

Results

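Interferon ligand and receptor genes were followed in tumour RNA from mice with squamous cell carcinoma, a cancer of squamous epithelium such as skin. The genes were the ligands Ifnb1 and Ifna4 and the receptor chains Ifnar1, Ifnar2, Ifngr1, Ifngr2 and Il10rb. They were picked by symbol, and 7 of 7 were in the deposited table of 14159 genes. The Kdm4a knockout group (2 libraries) came from primary tumours in which the gene for the histone demethylase KDM4A had been removed inducibly. The control group (2 libraries) came from primary tumours labelled as controls. The labels give the inducible knockout as treatment for all 4 samples, and the genotype label separates the groups. Neither group had been cultured. The sources used here do not give the strain, age or sex of the mice, the driver of the knockout or how the tumours arose. They also do not say whether the libraries of a group came from separate animals, so p-values reflect the spread between these libraries alone, and that spread may be technical.

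Type I interferons are secreted proteins that cells release after sensing foreign or misplaced nucleic acid, and they include interferon beta (Ifnb1) and a family of interferon alphas (Ifna4 and others). All bind the same receptor, made of the chains Ifnar1 and Ifnar2, and the kinases Tyk2 and Jak1 bound to those chains activate transcription factors, among them Stat2, which acts with Irf9. Type II interferon binds Ifngr1 and Ifngr2, which work through Jak1 and Jak2. Il10rb is a shared chain: it pairs with Il10ra for interleukin 10 and with Ifnlr1 for type III interferons. In squamous tumours these receptors are present on tumour cells and on the immune and stromal cells around them, and RNA of a whole tumour does not separate these. Fewer cells of a type and less RNA per cell cannot be told apart in such RNA.

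The ligand genes carry compact promoters, which are shown because the ligand genes were called higher and most receptor genes were not called. The part of promoter sequence in that difference was not tested. In mouse cells Ifnb1 and Ifna4 are known as ligand genes induced early by IRF factors, and the Ifnb1 promoter is also known to bind NF-kB beside the IRF sites. The stretches below are 120 bases from the RefSeq promoter table (build GRCm38.p6), 5′ to 3′ on the gene's strand, each ending with a TATA-type box (TATAAA or TATTTAA). Other capitals mark matches to AANNGAAA, an IRF core, to an IRF repeat (GAAA, any 2 bases, GAAA) that contains the IRF core, and to an NF-kB core (GGG, any 3 bases, TTCC). Ifnb1 lies at chr4:88522871-88522990 on the minus strand, Ifna4 at chr4:88841651-88841770 on the plus strand, Ifna2 at chr4:88683871-88683990 on the minus strand and Ifna5 at chr4:88835312-88835431 on the plus strand.
Ifnb1: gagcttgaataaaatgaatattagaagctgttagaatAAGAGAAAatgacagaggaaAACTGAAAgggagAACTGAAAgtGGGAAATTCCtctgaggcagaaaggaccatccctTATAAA
Ifna4: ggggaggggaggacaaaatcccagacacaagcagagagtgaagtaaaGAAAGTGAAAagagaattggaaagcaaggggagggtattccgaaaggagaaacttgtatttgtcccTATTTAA
Ifna2: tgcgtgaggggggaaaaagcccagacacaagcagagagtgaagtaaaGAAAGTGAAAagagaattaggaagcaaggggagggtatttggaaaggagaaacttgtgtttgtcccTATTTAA
Ifna5: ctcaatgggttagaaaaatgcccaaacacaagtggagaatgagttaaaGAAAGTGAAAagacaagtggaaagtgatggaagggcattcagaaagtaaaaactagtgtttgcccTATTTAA

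Promoter windows of 300 bases (250 before the annotated start and 50 after it) were searched on both strands for 6 of the 7 genes, and Il10rb had no entry. The Ifnb1 window held 3 matches to AANNGAAA and 1 to the NF-kB core. The Ifna4 window held 3 matches to AANNGAAA and 2 to the IRF repeat. Among 32851 such windows, 1.12% held at least 3 matches to AANNGAAA, 0.225% at least 2 to the IRF repeat and 5.56% at least 1 to the NF-kB core. The receptor windows were richer in G and C (57.0% for Ifnar2, 60.3% for Ifngr1, 68.3% for Ifnar1 and 74.3% for Ifngr2, against 42.7% for Ifnb1 and 48.0% for Ifna4). They held no match to either IRF motif, and only that of Ifngr2 held the NF-kB core (1 match). Of all such windows 23.9% held at least 1 match to AANNGAAA and 3.44% at least 1 to the IRF repeat, so their absence is common. The printed Ifna2 and Ifna4 stretches were identical at 94.8% of 115 aligned bases, and those of Ifna5 and Ifna4 at 82.9% of 105.

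Levels were read as FPKM, a fragment count scaled by transcript length and by library size, which is meant to allow comparison between genes. The rank correlation of level with transcript length was -0.101 in both control libraries and -0.194 and -0.224 in knockout libraries 1 and 2. This length trend therefore differed between the groups, and an alternative setting removed it. The number of reads behind a value is unknown. Differences are log2 fold changes of knockout minus control on log2(FPKM + 1), tested with limma, and a gene was called at an adjusted p under 0.05. As a check of the labels, Kdm4a stood at 14.9 and 14.7 FPKM in the knockout libraries and at 29.6 and 27.7 FPKM in the control libraries (log2 fold change -0.91, SE 0.07, limma adjusted p = 0.00077). Of 12046 genes tested, 63.9% were called, 30.1% higher and 33.8% lower in knockout, and the groups did not overlap for 83.9%. The median absolute log2 fold change was 0.47. Among the 7 interferon genes 3 were called, 2 higher and 1 lower. Both knockout libraries lay above both control libraries in 3 of the 7 (40.4% of all genes tested) and below them in 3 (43.5%), and 1 overlapped.

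Ifnb1 was much higher in knockout. It stood at 58.9 and 72.9 FPKM in the knockout libraries, against 3.24 and 2.19 FPKM in the control libraries. Both knockout libraries lay far above both control libraries. The log2 fold change was 4.18 (SE 0.18, limma adjusted p = 0.000297), a ratio of means of 24.3 on the FPKM scale. Of the genes tested, 43 had a larger log2 fold change. By mean level Ifnb1 lay above 89.1% of all genes in knockout and above 28.8% in control. In GRCm38 (GENCODE M21) its gene, which has no introns, covers 88522025 to 88522774 of chromosome 4 (minus strand).

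Ifna4 was higher as well. It reached 10.3 and 12.8 FPKM in the knockout libraries, against 0.311 and 0.143 FPKM in the control libraries. These groups do not overlap, and the control values are close to 0. The log2 fold change was 3.35 (SE 0.15, limma adjusted p = 0.000311), and the ratio of means was 50.8. Because the control level is so low, that log2 fold change depended on the pseudocount: it was 5.19 with 0.1 added in place of 1 and 1.66 with 5. Ifna4 passed the filter on low values only through its knockout libraries, so that a gene tested in this way had to differ. It lies on the plus strand of chromosome 4 from 88841861 to 88842421, 319.1 kb from Ifnb1.

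**Figure D1:**
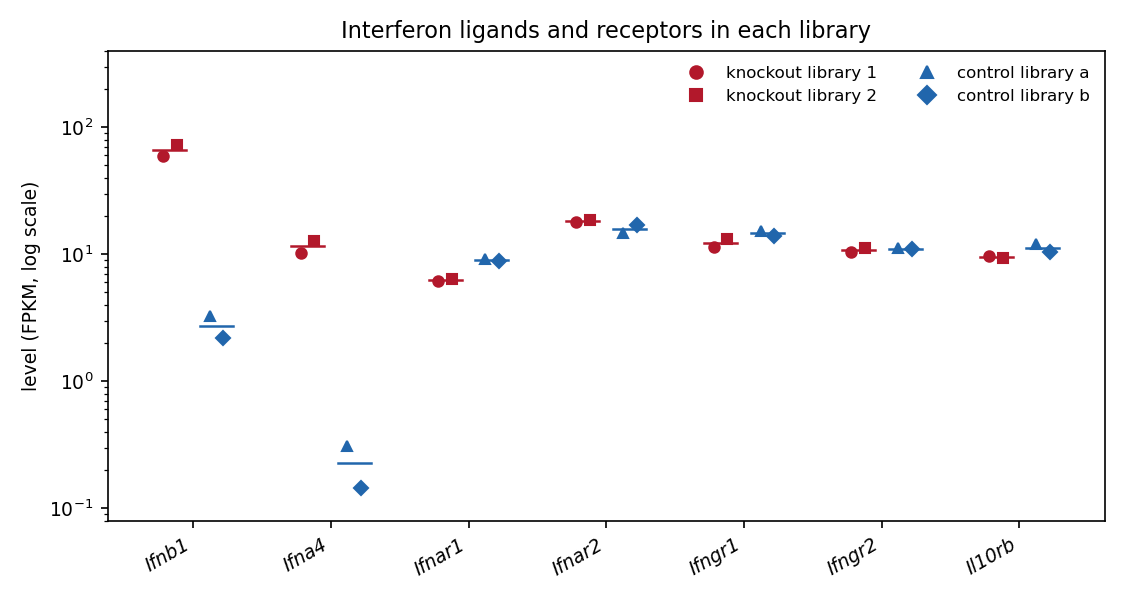
Level of each interferon ligand and receptor gene in FPKM (log scale), with knockout libraries left and control libraries right for each gene; horizontal lines are means of 2 libraries. Ifnb1 and Ifna4 are separated by more than a factor of 10 between groups, and the 5 receptor genes lie between 6.13 and 18.6 FPKM in all libraries.

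The other interferon alpha genes were in the table at lower levels. Altogether 9 Ifna genes were listed. No gene in the table has a mean over the 4 libraries below 0.25 FPKM, and the control means of these 9 were 0 to 0.227 FPKM. They are therefore listed only through their knockout libraries, and that they lay higher in knockout is largely fixed by the listing and supports nothing. For 5 of them, Ifna1, Ifna9, Ifna11, Ifna14 and Ifnab, both control libraries were listed at 0. The summed level of the 9 was 21.5 and 29.2 FPKM in knockout and 0.484 and 0.940 FPKM in control. Ifna2 (4.90 and 6.14 FPKM in knockout, 0 and 0.323 FPKM in control) and Ifna5 (2.44 and 3.12 FPKM in knockout, 0.173 and 0.159 FPKM in control) reached the level for testing, again only through their knockout libraries, and their log2 fold changes of 2.50 and 1.69 are a description. The other 10 ligands sought, among them the epithelial genes Ifne and Ifnk and the type III genes Ifnl2 and Ifnl3, are not analysed here.

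**Figure D2:**
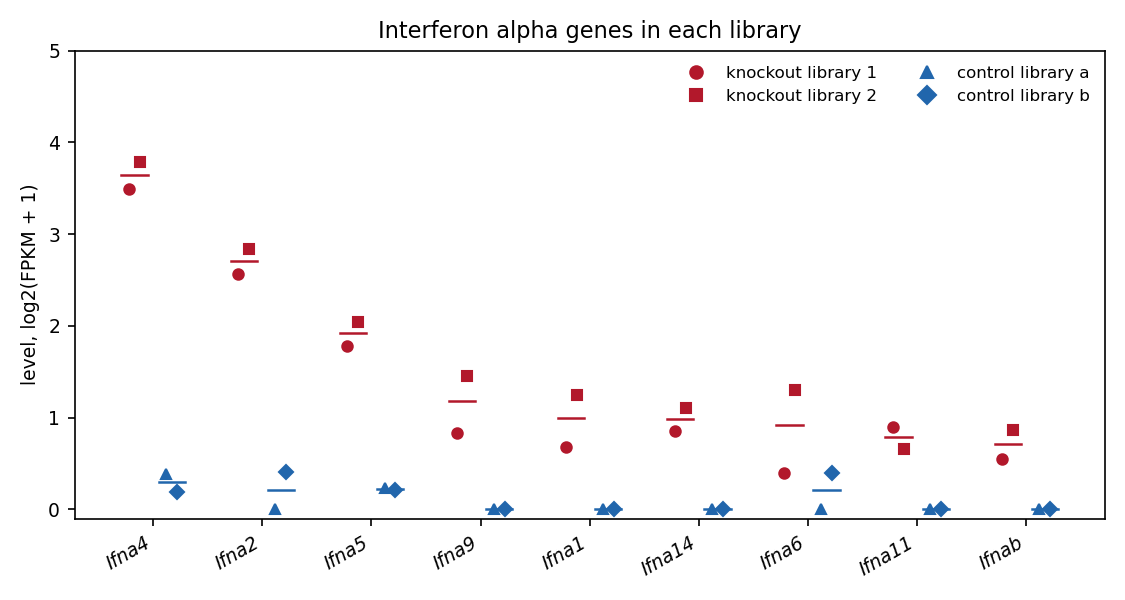
Level of the 9 interferon alpha genes, as log2(FPKM + 1), in each library, with knockout left and control right; horizontal lines mark the log2 of the mean of 2 libraries plus 1. Every knockout library lies above both control libraries for its gene, and Ifna4 has the highest knockout level.

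The Ifna genes are much alike, and whether reads were shared between them was not tested. Over their aligned transcript bases the other 8 Ifna genes were 87.5% to 91.4% identical to Ifna4, and their longest identical runs with it were 29 to 66 bases. Ifnb1 shared no run longer than 9 bases with Ifna4. In knockout, Ifnb1 made up 73.3% and 71.4% of the summed level of Ifnb1 and the Ifna genes, and Ifna4 made up 47.9% and 43.8% of the summed Ifna level. The matching shares in control were 87.0% and 69.9% for Ifnb1 and 64.3% and 15.3% for Ifna4, from values near 0.

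Markers of other cells also differed between the groups. Of all genes tested 30.1% were called higher and 33.8% lower in knockout, shares that stand beside the marker counts here and in the next paragraph. The summed level of 6 salivary gland genes was 4852 and 1079 FPKM in knockout and 6.79 and 37.0 FPKM in control (6 of 6 higher, of which Dcpp1, Dcpp3 and Pip reached 1 FPKM in knockout libraries only), and Bpifa2, Smr3a and Dcpp3 were not called with robust eBayes. That sum was larger in knockout library 1 and Ifnb1 in library 2, and an order between 2 libraries is a description only. T cell markers rose in 8 of 8, or in 5 without control library b or knockout library 2 (41.0 and 44.8 FPKM summed in knockout, 18.8 and 14.9 in control), macrophage and monocyte markers in 7 of 10 (739 and 865 in knockout, 593 and 553 in control) and B and plasma cell markers in 4 of 6 (45.9 and 92.2 in knockout, 24.1 and 32.6 in control). Only 1 macrophage marker was called without control library b and 3 without library a. Keratinocyte markers fell in 6 of 8 (4135 and 4034 FPKM summed in knockout, 6897 and 7046 in control), and none rose. Krt5 and Krt14, defining genes of squamous epithelium, stood at 1188 FPKM or more in every library. The part of these markers in the ligand values was not tested.

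Plasmacytoid dendritic cells are known for making large amounts of type I interferon. Their defining gene Siglech lay at 0.637 and 1.07 FPKM in knockout and 0.497 and 0.258 FPKM in control, and their marker Pacsin1 at 0.492 and 0.908 FPKM in knockout and 0.186 and 0.221 FPKM in control. Both were too low to be tested, and in both the knockout libraries lay above the control libraries. Of 6 tested markers of that cell type none rose and 1, the transcription factor gene Tcf4, fell (summed over the 8 in the table, 108 and 133 FPKM in knockout, 119 and 117 in control). That count leaves out Siglech and Pacsin1. The largest part of that sum is Ly6d (46.1 and 56.3 FPKM in knockout, 40.8 and 44.7 in control). Neither the count nor the sum therefore follows the defining gene. Ly6d stood at 0.25, and at 0.39 without knockout library 1. Bst2 (0.31), which interferon itself induces, was called higher under 5 alternatives, and Irf8 (-0.45) was called lower without knockout library 2 (-0.86, limma adjusted p = 0.00267). Conventional dendritic cell markers were mostly under the level tested (2.15 and 3.26 FPKM summed over 4 genes in knockout, 2.63 and 2.34 in control). Flt3 was the 1 tested and was called (1.29 and 1.70 FPKM in knockout, 0.812 and 0.665 FPKM in control), but it passed the filter only through knockout, and the call was lost without either control library or knockout library 2 (limma adjusted p = 0.0546, 0.105 and 0.0755). Batf3 lay the other way, at 0.0919 and 0.838 FPKM in knockout and 0.912 and 1.31 FPKM in control. Natural killer and cytotoxic markers rose in 1 of 2 (Nkg7, with 6.81 and 6.99 FPKM summed over 3 genes in knockout, 5.67 and 5.61 in control). Fibroblast markers summed to 29.7 and 35.0 FPKM in knockout and 28.8 and 23.8 in control. Of these 6 only Thy1 was called higher (1.04), and Col1a1, Col1a2, Dcn, Lum and Pdgfra (-0.12 to 0.22) were not called. The median of the T cell markers was 1.03, and which cells the Thy1 RNA came from was not tested. Endothelial markers rose in 1 of 1 (Pecam1, with 5.47 and 6.82 FPKM summed over 4 genes in knockout, 4.48 and 3.58 in control). Counts of 1 of 2 and 1 of 1 are too few to set against the shares of all genes. The Nkg7 call was lost without control library b (limma adjusted p = 0.0503), and that on Pecam1 without control library b, knockout library 1 or knockout library 2 (0.222, 0.0517 and 0.146).

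The chains of the type I receptor did not move together. Ifnar1, the chain that carries Tyk2, was lower in knockout, at 6.13 and 6.43 FPKM in the knockout libraries against 9.23 and 8.88 FPKM in the control libraries. The groups did not overlap. Its log2 fold change was -0.47 (SE 0.09, limma adjusted p = 0.00894), as large as the median absolute change of all genes, and 27.3% of the genes tested had a lower value. With a single control library Ifnar1 no longer passed, at -0.44 (limma adjusted p = 0.104) when library a was left out and -0.49 (0.0794) when b was.

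Ifnar2, the chain that carries Jak1 and binds ligand tightly, stood at 18.0 and 18.6 FPKM in knockout and at 14.6 and 16.9 FPKM in control. Knockout lay above control without overlap, but the gap was smaller than the spread of the control libraries. The log2 fold change was 0.21 (SE 0.10, limma adjusted p = 0.11), with a 95% interval from -0.04 to 0.46. It was called with quantile normalization (0.31, adjusted p = 0.0423), and was 0.11 without control library a. The level of Ifnar2 over that of Ifnar1 was 2.94 and 2.90 in knockout, against 1.59 and 1.90 in control. The ratios did not overlap (two-sided exact permutation p = 0.333, the smallest that 2 against 2 can give).

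The receptor for type II interferon differed little. Ifngr1, its ligand-binding chain, stood at 11.5 and 13.1 FPKM in knockout and at 15.2 and 14.0 FPKM in control. Its groups were close but did not overlap. The log2 fold change was -0.23 (SE 0.10, limma adjusted p = 0.101, 95% interval -0.49 to 0.03), and Ifngr1 was called lower without knockout library 2 (-0.32, adjusted p = 0.0369) and after the trend with transcript length was removed (-0.35, adjusted p = 0.027). Ifngr2, the accessory chain, overlapped between the groups, with 10.5 and 11.2 FPKM in knockout and 11.1 and 11.0 FPKM in control. Its log2 fold change was -0.02 (SE 0.08, limma adjusted p = 0.851), with a 95% interval from -0.24 to 0.20, and its sign turned with quantile normalization (0.11), with the length trend removed (0.05) and without knockout library 1 (0.02). The level of Ifngr1 over that of Ifngr2 was 1.09 and 1.17 in knockout and 1.37 and 1.27 in control.

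Il10rb, the shared chain, stood at 9.71 and 9.40 FPKM in knockout and at 12.1 and 10.4 FPKM in control, again without overlap but with a gap smaller than the spread of the control libraries. Its log2 fold change was -0.21 (SE 0.10, limma adjusted p = 0.131, 95% interval -0.48 to 0.06). Its partners moved more, and in opposite directions. Il10ra, the chain specific to interleukin 10, which is mostly made by blood cells, rose to 5.65 and 9.85 FPKM in knockout, against 1.47 and 1.17 FPKM in control (log2 fold change 1.87, SE 0.25, limma adjusted p = 0.0028). Ifnlr1, the chain specific to type III interferons and found mostly on epithelial cells, fell to 0.773 and 0.556 FPKM in knockout, against 2.32 and 2.62 FPKM in control (-1.06, SE 0.13, limma adjusted p = 0.00198).

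The level of Il10rb over that of Il10ra was therefore 1.72 and 0.954 in knockout and 8.23 and 8.87 in control, and over that of Ifnlr1 it was 12.6 and 16.9 in knockout and 5.20 and 3.98 in control. Among the 4 tested genes of this receptor family and its ligands, 2 rose and 2 fell (median log2 fold change -0.06), but Il22ra2 passed the filter only through knockout and Ifnlr1 only through control. The other riser was Il22ra2, a soluble antagonist of interleukin 22 (0.93), and the other faller was Il24, a cytokine of epithelium (25.4 and 23.0 FPKM in knockout, 89.0 and 89.3 FPKM in control, log2 fold change -1.84, limma adjusted p = 0.000287). The counts of blood cell and keratinocyte markers given above moved the same way as Il10ra and Ifnlr1, and their part was not tested.

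By level in knockout the receptor genes ran from Ifnar2 (18.3 ± 0.423 FPKM, SD, n = 2) through Ifngr1 (12.3 ± 1.13), Ifngr2 (10.9 ± 0.481) and Il10rb (9.55 ± 0.219) to Ifnar1 (6.28 ± 0.214). In control the order was Ifnar2 (15.7 ± 1.57), Ifngr1 (14.6 ± 0.838), Il10rb (11.2 ± 1.17), Ifngr2 (11.0 ± 0.0240) and Ifnar1 (9.05 ± 0.241). Ifnar1 was the lowest in all 4 libraries. In control the neighbours Ifnar2 and Ifngr1, and Il10rb and Ifngr2, overlapped, whereas in knockout no neighbours in the order did. The summed level of the 5 was 55.9 and 58.8 FPKM in knockout and 62.2 and 61.2 FPKM in control. Ifnb1 lay above each receptor gene in both knockout libraries and below each of them in both control libraries.

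The receptor genes sit together in the genome, and that arrangement gave no common direction. Ifnar2, Il10rb, Ifnar1 and Ifngr2 lie in that order on the plus strand of chromosome 16 within 192.8 kb (GRCm38), and Il10rb starts 0.6 kb after Ifnar2 ends. Ifnar2 runs from 91372783 to 91405589, Il10rb from 91406164 to 91425834, Ifnar1 from 91485238 to 91507441 and Ifngr2 from 91547072 to 91565623. Ifngr1 is elsewhere, on chromosome 10 from 19591949 to 19610229. Of 12 other listed genes within 500 kb of Ifnar1, 10 were tested, of which 3 rose and 3 fell (median log2 fold change 0.03). Of all genes tested 30.1% rose and 33.8% fell. The riser Gm10785 (2.17 and 2.71 FPKM in knockout, 0.665 and 0.728 FPKM in control) passed the filter only through knockout. On the Ifnar2 side lie Paxbp1 (0.16, called only with quantile normalization, at 0.29, and with the length trend removed, at 0.26), the noncoding gene 4930404I05Rik, which was not tested, and Synj1 (-0.36). Downstream of Ifngr2 the nearest were Tmem50b (-0.27, limma adjusted p = 0.0713, but called at -0.36 with the length trend removed), Dnajc28, which was not tested, the purine synthesis gene Gart (0.26), the splicing gene Son (-0.36) and the replication fork gene Donson (1.47). Synj1, Son and Itsn1 (-0.49) stood at 0.03, 0.11 and 0.13 after the trend with transcript length was removed and were then not called. The calls on Gart, Son, Itsn1 and Synj1 were also lost without either control library.

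Around Ifnb1, 5 other genes were listed within 500 kb, of which 4 fell and none rose (median -0.79), where 33.8% of all genes fell. Upstream along the chromosome lie Hacd4 (0.12, limma adjusted p = 0.541), Focad (-0.79; -0.48 and adjusted p = 0.055 with the length trend removed) and Mllt3 (-1.22). Klhl9, which lies between Ifna2 and Ifna4, stood at 22.5 and 18.8 FPKM in knockout and at 34.5 and 37.0 FPKM in control (-0.77, SE 0.11, limma adjusted p = 0.00315). Mir31, a microRNA gene on the far side of Ifna4, was listed at 0 in both knockout libraries and at 19.8 and 110 FPKM in control. Such a value in polyadenylated RNA need not measure the microRNA. Mir31 is counted among the 4 that fell, but it passed the filter only through control.

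**Figure D3:**
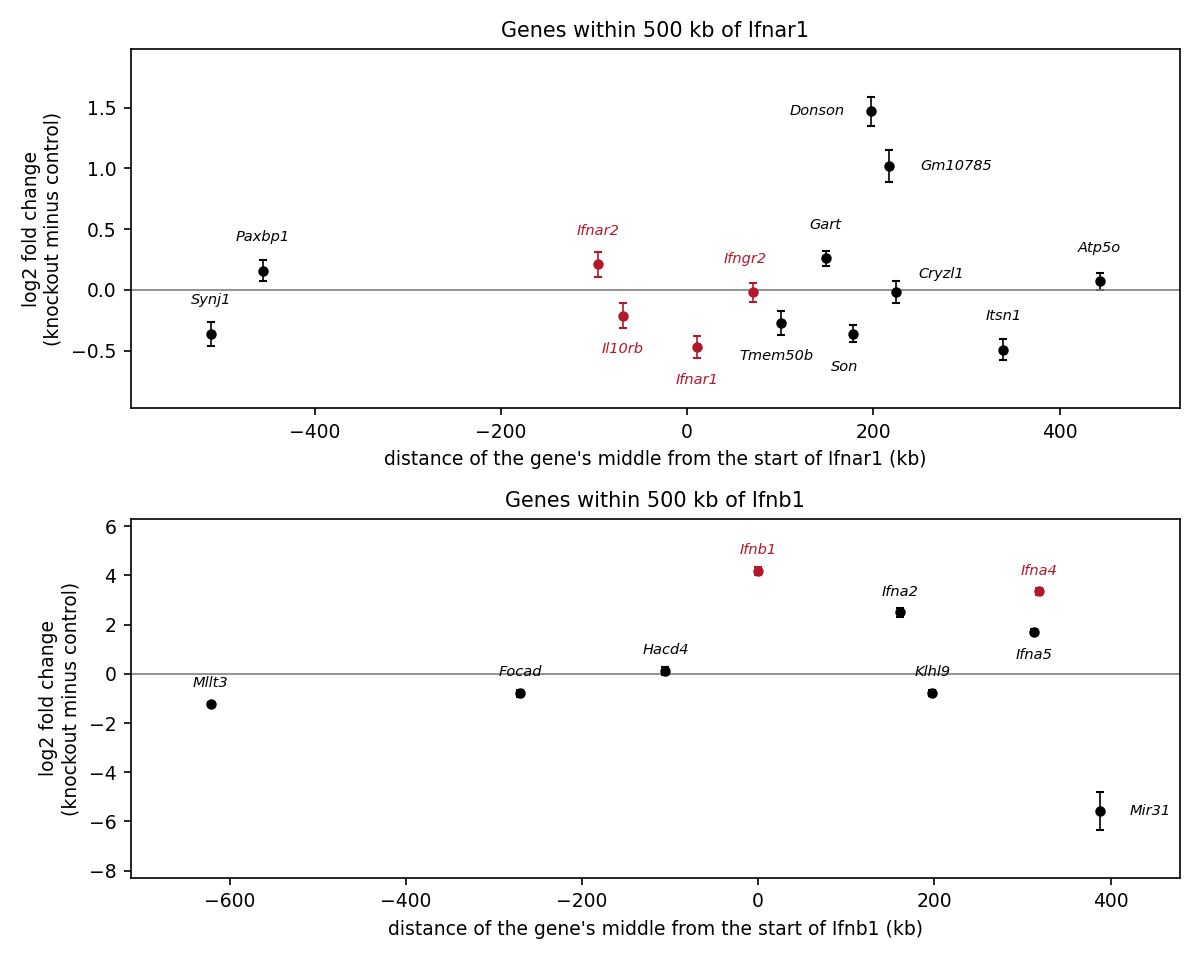
Log2 fold change (knockout minus control, with limma's SE) of tested genes whose span lies within 500 kb of Ifnar1 (top) or Ifnb1 (bottom), by distance of the gene's middle from the start of that gene in kb; interferon ligand and receptor genes named in the opening are red. The 4 clustered receptor genes lie between -0.47 and 0.21 beside Donson at 1.47, and Ifnb1 (4.18) and the Ifna genes stand above Klhl9 (-0.77), which lies among them.

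Below the receptors, 3 of 5 genes in the list of Janus kinases, Stat2 and Irf9 rose and 1 fell (median log2 fold change 0.47). Of all genes tested 30.1% rose and 33.8% fell, shares that stand beside this list and those that follow. Stat2 stood at 10.8 and 13.0 FPKM in knockout and at 5.89 and 7.25 FPKM in control (0.77, SE 0.14, limma adjusted p = 0.00733). Irf9 was higher by 0.47, a call lost without control library a or either knockout library (limma adjusted p = 0.207, 0.0514 and 0.0933). Of the kinases, Jak1 rose (47.2 and 46.1 FPKM in knockout, 33.3 and 33.2 in control; 0.48), Jak2 fell (6.89 and 9.61 FPKM in knockout, 14.0 and 13.9 in control; -0.71) and Tyk2 stood at 0.27 (adjusted p = 0.108; called at 0.39 without knockout library 1 and at 0.48 with the length trend removed). Jak2 missed the threshold when control library a (limma adjusted p = 0.0529) or b (0.0511) was left out and with the length trend removed (0.0671).

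Genes that restrain receptor signalling were mixed, with 4 of 9 higher and 2 lower (median 0.17), and 3 higher and 1 lower without either control library. Socs1, an inhibitor of Janus kinases induced by interferon, rose to 8.18 and 15.0 FPKM in knockout, against 2.98 and 3.14 FPKM in control (1.58). Usp18, which binds Ifnar2 and blocks signalling from it, rose to 3.85 and 10.2 FPKM in knockout, against 1.60 and 1.13 FPKM in control (1.65, SE 0.41, limma adjusted p = 0.0194). The phosphatase genes Ptpn6 and Ptpn11 stood at 0.79 and -1.20, and both were called. Of 7 genes linked to turnover of the Ifnar1 protein, 2 rose and 3 fell (median 0.03), where 30.1% of all genes rose and 33.8% fell. Prkd2 was not called (limma adjusted p = 0.0502). It was called higher with quantile normalization (0.38, limma adjusted p = 0.0142), with the length trend removed (0.31, 0.0217) and in other settings. The ubiquitin ligase gene Fbxw11 (-1.09) and the kinase gene Csnk1a1 (-0.68) fell, and the ligase subunit genes Skp1a (0.87) and Btrc (0.69) rose.

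Genes that act on the Ifnb1 promoter moved both ways. In the list of enhanceosome factors and coactivators, 2 of 10 rose and 6 fell (median -0.46), where 30.1% of all genes rose and 33.8% fell. With the length trend removed 5 were called lower (median -0.29), and the coactivator gene Crebbp moved to -0.37 (as reported -0.91). The risers were Irf1 (34.6 and 55.2 FPKM in knockout, 12.4 and 10.9 in control; 1.83) and Irf7 (7.52 and 15.1 FPKM in knockout, 3.02 and 2.78 in control; 1.58), both themselves induced by interferon. The architectural gene Hmga1 stood at 173 and 181 FPKM in knockout and 471 and 467 FPKM in control (-1.40), and the NF-kB subunit gene Nfkb1 at 16.1 and 14.7 FPKM in knockout and 31.5 and 31.8 FPKM in control (-1.0). Irf3, which is present before induction, fell by 0.58 on the log2 scale, a call lost without either control library and with quantile normalization (limma adjusted p = 0.0556, 0.0881 and 0.0506). The NF-kB gene Rela and the AP-1 gene Jun stood at -0.08 and 0.22 and were not called, though Jun was (0.33) without knockout library 1. Atf2 was called lower (-0.35, limma adjusted p = 0.0339), but not with the length trend removed (-0.21, limma adjusted p = 0.0838). Atf2 stood at -0.39 and -0.30 when control library a or b was left out. Without control library a or b 4 genes of this list were called lower. Of the repressor genes Prdm1 and Irf2, Prdm1 stood at -0.45 and was called (limma adjusted p = 0.0238, but 0.0746 with quantile normalization, 0.246 with the length trend removed and 0.1 or 0.155 when control library a or b was left out), and Irf2 stood at -0.14 (0.21).

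Of 12 tested sensors, adaptors and kinases upstream of Ifnb1, 7 rose and 3 fell (median 0.54), with 3 rising without control library a and 4 without b. Zbp1, a sensor of nucleic acid, rose by 1.67, and the adaptor genes Traf3 (-1.16) and Ticam1 (-0.73) fell. These 3 had the smallest p. The largest rise was that of Ifih1 (13.3 and 38.9 FPKM in knockout, 2.87 and 2.90 in control; 2.62). Whether the genes that rose did so before or after Ifnb1 was not tested.

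Most listed targets of the receptors were higher in knockout. Among 16 genes that respond mainly to type I interferon, 14 were tested and 14 rose (median 3.04), and among 14 in the table that respond mainly to type II, 13 were tested and 13 rose (median 1.95). The members were listed with their rise known, so these counts are a description. Usp18 among the type I targets, and Socs1 and Irf1 among the type II targets, were already counted in lists above. Mx2, Oas2, Gbp4, Ciita and Cxcl9 passed the filter only through knockout. Ifi44, a type I target too low to be tested, overlapped, with 0.324 and 0.987 FPKM in knockout and 0.351 and 0.328 FPKM in control. Most such genes answer to both interferons. By p, Mx2, Isg15 and Ifit1 led the first list, with log2 fold changes of 3.01, 2.80 and 4.0. Gbp4, Igtp and Irf1 led the second by p, with 1.12, 1.95 and 1.83. The summed level of the first list was 384 and 825 FPKM in knockout and 44.0 and 41.6 FPKM in control, and that of the second 145 and 284 in knockout and 52.9 and 49.6 in control. Both sums were higher in knockout library 2, where Ifnb1 (72.9 against 58.9 FPKM in library 1) was higher as well. An order between 2 libraries is again a description only. Leaving out 1 library left 12 to 14 of the first list and 11 to 13 of the second called.

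**Figure D4:**
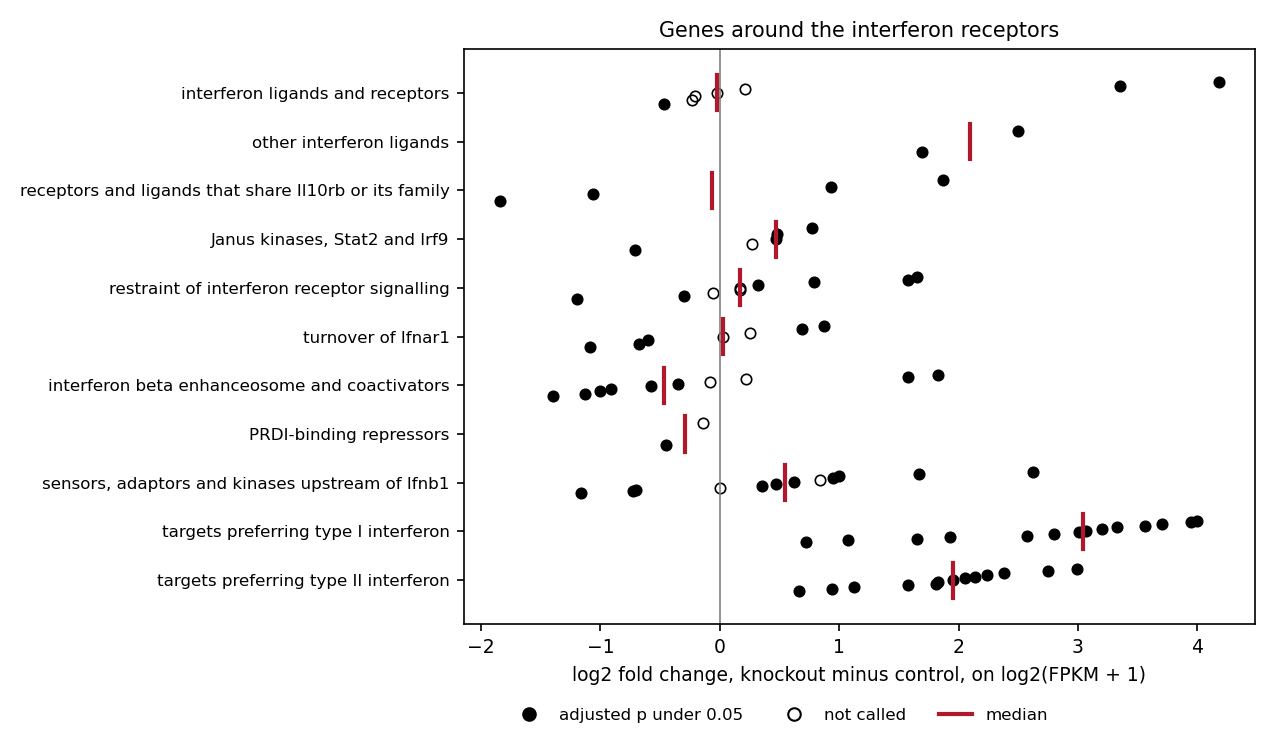
Log2 fold change (knockout minus control, on log2(FPKM + 1)) of each tested gene of the interferon ligands and receptors and of 10 lists around them; filled points passed an adjusted p of 0.05, open points did not, and red bars are medians. The receptor genes cluster near 0 while Ifnb1 (4.18), Ifna4 (3.35) and the targets (medians 3.04 and 1.95) lie far to the right.

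The genes with the pattern most like that of Ifnb1 were sought by Euclidean distance over the 4 libraries, on gene-centred log2(FPKM + 1), among 8572 genes. They were Ccl3 (distance 0.261), Hspa1a (0.275), Ccl4 (0.344), Dpm1 (0.563) and Hspa1b (0.563). In control Hspa1a stood at 0.468 and 0.330 FPKM, and Dpm1 at 0.386 and 0.218 FPKM. Hspa1a and Dpm1 therefore passed the filter on low values only through their knockout libraries and had to differ between the groups. How far their distances depend on the pseudocount was not tested. Ccl3 and Ccl4 encode chemokines, Hspa1a and Hspa1b near-identical heat shock proteins whose reads can be shared, and Dpm1 an enzyme of mannose transfer. Ccl3 stood at 74.5 and 94.8 FPKM in knockout and at 5.63 and 3.74 FPKM in control. Nearest to Ifnar1 were Tm9sf4, Rpusd3, Chmp3, Plp2 and Scpep1os (0.0260 to 0.0313). Nearest to Ifngr1 were Tram2, Spp1, Tmem222, Pf4 and Gpr19 (0.0206 to 0.0332), none of which was called. With 2 libraries in each group such distances mostly reflect the difference between the groups.

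**Figure D5:**
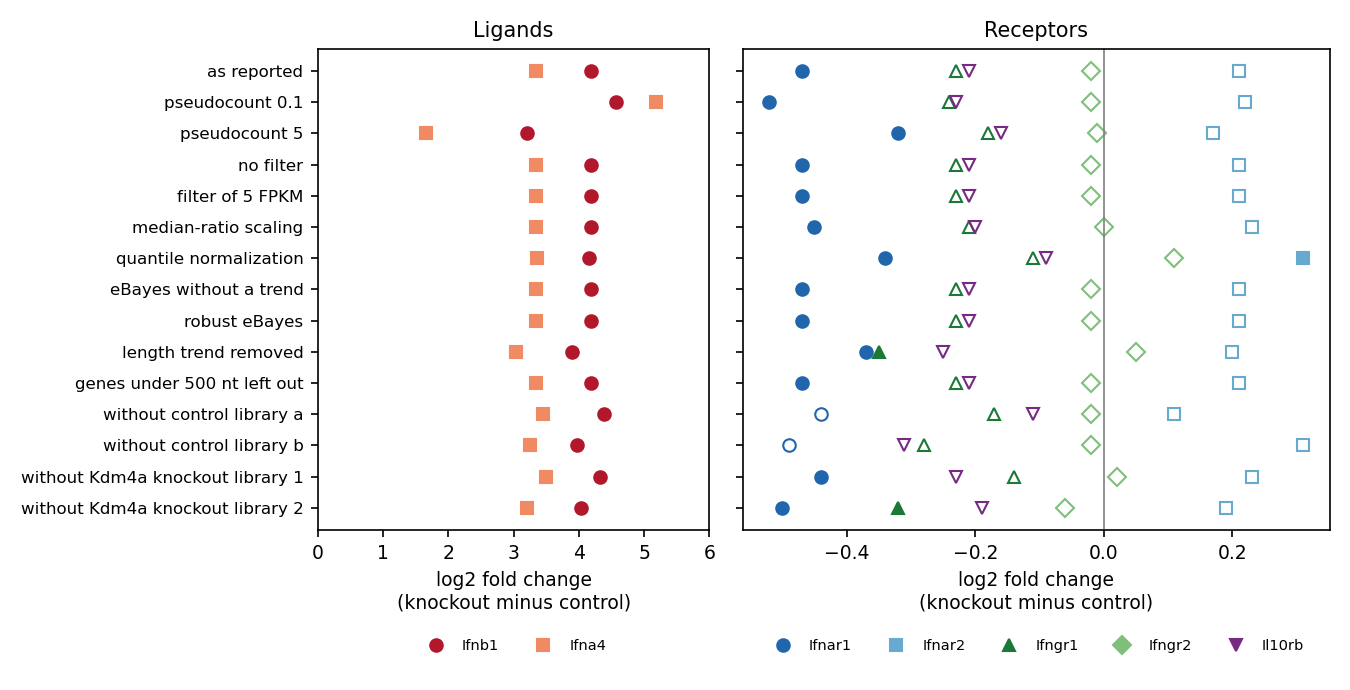
Log2 fold change (knockout minus control) of the ligand genes (left) and receptor genes (right) as reported and under 14 alternative settings, which run down the page; filled points passed an adjusted p of 0.05. Ifnb1 stays between 3.20 and 4.57 and Ifna4 between 1.66 and 5.19, while Ifnar1 (-0.52 to -0.32) loses its call without either control library.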

How the data were processed

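Polyadenylated RNA of 4 libraries, 2 from Kdm4a knockout and 2 from control tumours, was sequenced from a stranded Kapa kit, per the labels' protocols. The authors deposited 1 table of 14159 genes with 4 columns, read here as FPKM. The submitters' processing notes name TopHat, Cufflinks and build mm9. The sheet is named for CPM, but its columns sum to between 592281 and 626719. The sources used here give no tool versions, annotation or strand setting. The lowest gene mean is 0.25 FPKM, and genes below it are not in the table. Both control columns carry the same name and are called a and b here.

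The 12046 genes that reached 1 FPKM in 2 or more libraries were fitted as log2(FPKM + 1) with limma 3.58.1 in R 4.3.3 (lmFit, eBayes with a trend, 2 residual and 2.93 prior degrees of freedom), knockout minus control, two-sided, with Benjamini-Hochberg adjustment over all genes tested. The fit was tested on simulated data. Fold changes on this scale understate changes of low genes. SE is limma's moderated standard error. Transcript lengths and positions came from GENCODE M21 (GRCm38), matched by symbol for 99.1% of genes, and promoters from RefSeq (GRCm38.p6). No coordinate was taken from mm9. Named genes were the ligand and receptor genes, in each list the 3 with the smallest p, a fixed set of signalling genes, near neighbours and the 5 nearest patterns. Some listed genes and markers were named after their values were seen. The members and lists were chosen with earlier results of these data known. One listed signalling gene is not reported here.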

Additional observations from a re-analysis of the deposited data

How the results depend on the processing

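Under 14 alternatives (pseudocounts of 0.1 and 5, no filter, a filter of 5 FPKM, median-ratio scaling, quantile normalization, eBayes without a trend, robust eBayes, the length trend removed, genes under 500 nt left out, and each library left out), Ifnb1 and Ifna4 were called higher each time. Ifna4 is listed only through its knockout libraries, so its calls were largely fixed by the listing and support nothing. Of 98 values of the 7 ligand and receptor genes, 93 kept their call, 2 lost it and 3 gained it, and no called value changed sign. The number of these genes called lower was 1, but 2 with the length trend removed, and 0 to 2 when 1 library was left out; the number called was 2 to 4 when 1 library was left out. Across all genes 5245 to 8146 were called when 1 library was left out, against 7701. With the length trend removed Synj1, Son and Itsn1 turned to 0.03, 0.11 and 0.13. No scaling moved the median of all genes by more than 0.04. No paired analysis was possible because the control columns carry no replicate number. The number of reads behind the values is unknown, which leaves the error of low values such as those of the Ifna genes in control unmeasured. With 2 libraries a group, intervals are wide, and a receptor gene that was not called may still differ by up to the bounds given.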
